A study of Rattus norvegicus with 9 samples.

Results

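The response of rat primary chondrocytes to interleukin-1β (IL-1β) was described across every gene with at least 1 FPKM in at least 3 of 6 libraries, 3 of chondrocytes in normal culture without IL-1β (control) and 3 of chondrocytes in normal culture with IL-1β. FPKM values divide a gene's fragments by its transcript length and by the size of the library, so levels of different genes can be set side by side. This rule took in 11603 of the 17588 genes of the deposited table. All cells are labelled wild type (WT), and the labels used here state no age or strain of the animals. The cells had been released from cartilage with collagenase II and grown in serum. A further 3 libraries, of IL-1β-treated chondrocytes co-cultured with dermal fibroblasts, entered the statistical fit only to help estimate the spread. The labels used here state no dose or duration of IL-1β. Nor do they say whether replicates came from separate animals or cultures, so p-values reflect library-to-library spread, possibly only technical. In bulk RNA, fewer cells of a type and less RNA per cell cannot be told apart.

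Chondrocytes are the only resident cells of cartilage. They secrete type II collagen fibrils and the proteoglycan aggrecan, which together give the tissue its stiffness. IL-1β binds a 2-chain receptor whose adaptor MyD88 and IRAK kinases activate NF-κB and the MAP kinases, and in cartilage it is known for switching cells from building matrix to breaking it down and to calling in leukocytes. Inhibitors made by the stimulated cells themselves limit the signal.

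The label was checked on 15 chondrocyte markers, of which 14 were in the table and 13 were tested. Col2a1, the chain of type II collagen, fell from 1042 ± 32.0 to 168 ± 4.45 FPKM with IL-1β, and the aggrecan gene Acan from 285 ± 7.65 to 89.5 ± 2.22 FPKM (mean ± SD, n = 3 libraries per group throughout). The untested marker was Chad, a cartilage leucine-rich protein, at 0.387 and 0.0667 FPKM in control and with IL-1β, the order in which pairs of means are given throughout. Col1a1, the type I collagen chain of fibrous tissue, was higher than Col2a1 in the controls, at 1973 FPKM on average. Of these 13 markers, 12 fell, 1 of them at 1 FPKM only in control, and 1, Sox5, rose with IL-1β. FPKM summed to 771058 to 782435 in the control libraries and 796262 to 832248 in the IL-1β libraries. The table holds no counts, so the depth in reads is unknown and no counting interval is given.

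IL-1β changed many genes slightly and some very strongly, and the large changes were mostly rises. In limma on log2(FPKM + 1) (11732 genes tested, Benjamini-Hochberg adjusted p under 0.05), 3086 members rose and 2364 fell. Over all tested genes 26.5% were called higher and 20.2% lower. Counts over gene lists given later are to be read beside these shares. Most of the calls, 4282 of 5450, were for changes of less than 1.5-fold. Changes reaching 2-fold in FPKM + 1 were called higher for 339 members and lower for 157 (2.9% and 1.34% of all tested genes). At 4-fold the counts were 102 and 17, and at 8-fold 60 and 0. On this scale the pseudocount shrinks the change of weakly expressed genes. Folds printed for single genes are ratios of mean FPKM, so they can exceed the log2 change printed beside them. The split of all calls rested on how libraries were scaled: of the 11732 tested genes 2248 were called higher and 3188 lower after libraries were rescaled to a common sum, 2749 and 2714 after median-of-ratios scaling, against 3109 and 2370 without rescaling. At 2-fold the same counts were 316 and 179, 332 and 169, and 340 and 157. Counts over gene lists given later are without rescaling unless stated.

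**Figure D1:**
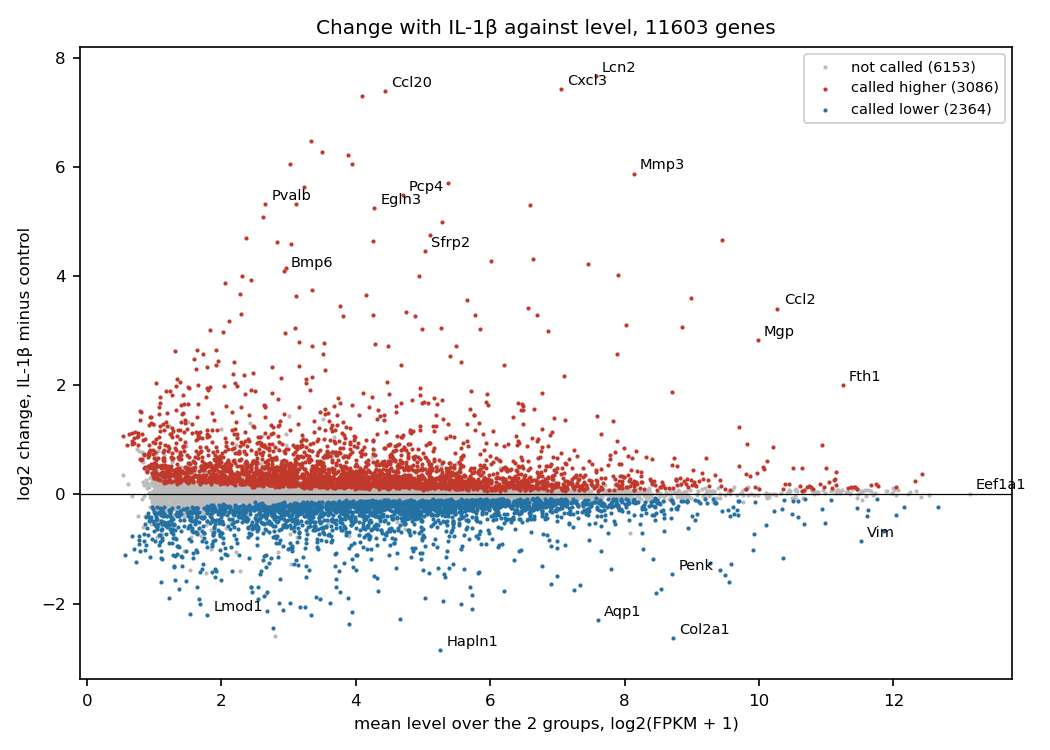
Log2 change with IL-1β (vertical axis) against the mean level of each of the 11603 genes over both groups in log2(FPKM + 1) (horizontal axis). Grey points were not called, red points were called higher (3086) and blue points lower (2364); the points reach much further above 0 than below it.

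Many genes were bounded near their control level. For 4638 members (40.0%, against 39.6% of all tested genes) the 95% confidence interval of the log2 change lay within 0.25 of 0. Among them were abundant transcripts: Eef1a1, a translation elongation factor, had 8952, 9043 and 8843 FPKM in the control libraries and 9181, 8957 and 9023 FPKM with IL-1β, a log2 change of 0.02 (95% interval -0.04 to 0.08). Ribosomal protein genes such as Rps2 (-0.04, -0.11 to 0.02) and Rps23 (0.02, -0.08 to 0.11) lay in the same band, though Rps2 was called lower after common-sum scaling (log2 change -0.11, limma adjusted p = 0.00359). Of the 4638 bounded members, 774 were also called higher or lower, so bounded and called genes overlap. A further 2289 members were neither called nor bounded in this way, so their changes remained unmeasured at this precision.

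Some genes crossed from below to above 1 FPKM. In 169 members all 3 IL-1β libraries reached 1 FPKM and no control library did, and 85 showed the reverse; since the rule admitted them through 1 group only, they had to differ and are given as a description. Most were low, with a median level of 1.78 FPKM over the 169 and 1.57 FPKM over the 85, and 19 of the 169 and 0 of the 85 averaged 10 FPKM or more. Counts over gene lists given later include such genes where they belong to a list, and their number is stated beside the count. Pvalb, a calcium buffer of fast muscle and some neurons, was listed at 0 in all 3 control libraries and at 48.2, 33.9 and 35.4 FPKM with IL-1β; skeletal muscle markers were higher in the same libraries and are given at the end. Il1a, the gene of IL-1α, rose from 0.673 ± 0.0462 to 39.3 ± 1.43 FPKM. The highest mean of the 85 was that of Lmod1, an actin filament nucleator of smooth muscle, with 6.6, 6.46 and 6.31 FPKM in the control libraries and 0.54, 0.61 and 0.68 FPKM with IL-1β. Aoc3, an amine oxidase of smooth muscle and fat, fell from 5.46 ± 0.197 to 0.607 ± 0.148 FPKM and Cilp, a cartilage intermediate layer protein, from 3.49 ± 0.196 to 0.2 ± 0.0173 FPKM. Nfs1 also belongs to this set, but 1 control library stood at 14.6 FPKM and the others at 2.05 and 1.2, and its call was lost (adjusted p 0.0614 to 0.0809 in limma with Benjamini-Hochberg adjustment) when any 1 IL-1β library was left out, with no filter (0.0639) and with the 6 compared libraries alone (0.0631).

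On the linear scale a few genes took up much of the change. The 339 members that rose at least 2-fold held 0.91% ± 0.01 of all FPKM in control and 5.63% ± 0.08 with IL-1β (SD, n = 3); these genes were chosen on this contrast, so the shares are a description. The 10 largest gains made up 27.2% of all FPKM gained. The largest gain was that of the chemokine Ccl2, which draws monocytes, with 374, 382 and 382 FPKM in the control libraries and 4294, 3882 and 3919 FPKM with IL-1β. Next came Fth1, the heavy chain of the iron store ferritin, with 1175, 1229 and 1234 FPKM in the control libraries and 4979, 4712 and 4829 FPKM with IL-1β. Fth1 has many processed copies in mammalian genomes, so its level is uncertain. Mgp, matrix Gla protein, an inhibitor of calcification, had 362, 396 and 381 FPKM in the control libraries and 2831, 2607 and 2624 FPKM with IL-1β, a 7.08-fold rise (log2 change 2.82, SE 0.07, limma adjusted p = 3.84e-10). Every IL-1β library lay above every control library for these 3 genes; groups were apart in this sense, in either direction, for 56.4% of all tested genes. Among the 10 largest losses Vim, the intermediate filament vimentin, fell from 3928 ± 18.8 to 2178 ± 44.7 FPKM, S100a4, a calcium-binding protein of motile cells, from 4682 ± 119 to 2949.6 ± 148 FPKM, and the type III collagen gene Col3a1 from 1312 ± 13.1 to 431 ± 6.95 FPKM.

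**Figure D2:**
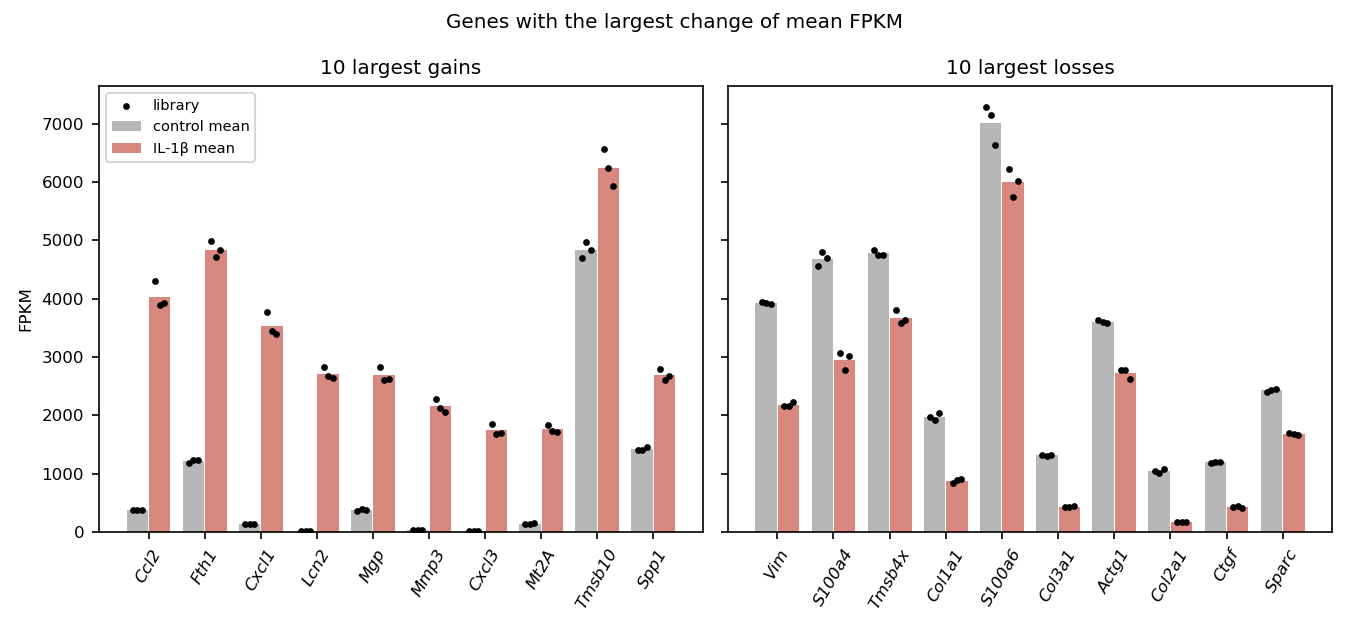
Mean FPKM (bars) and each library (points) for the 10 genes with the largest gain and the 10 with the largest loss of FPKM, control in grey and IL-1β in red. Secreted mediators, ferritin and metallothionein make up most gains, and cytoskeletal and collagen genes most losses.

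Among genes of the IL-1 receptor complex the largest rise was that of an inhibitor. Of 15 tested genes of the receptor complex and its adaptors, 5 rose and 2 fell. Over all tested genes 26.5% were called higher and 20.2% lower. The signalling receptor Il1r1 rose from 29.2 ± 1.51 to 45.8 ± 0.765 FPKM. Its partner chain Il1rap stood at 12.02 ± 0.518 and 12.7 ± 0.393 FPKM and the adaptor Myd88 at 13.1 ± 0.290 and 13.8 ± 0.837 FPKM, neither past the test. Irak3, the kinase-dead family member that restrains the receptor complex, had 10.7, 10.4 and 9.65 FPKM in the control libraries and 56.1, 56.05 and 59.6 FPKM with IL-1β, a 5.58-fold rise (log2 change 2.37, SE 0.06, limma adjusted p = 7.28e-10). Irak2 rose from 2.59 ± 0.275 to 4.10 ± 0.276 FPKM, the ubiquitin ligase Peli1 from 8.53 to 17.9 FPKM, and the kinase adaptor Tab2 fell from 31.1 to 25.4 FPKM. Il1r2, the decoy receptor, stayed under 1 FPKM (0.26 and 0.533).

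In the wider IL-1 family a receptor fell from a high level. Il1rl1, also known as ST2, the receptor of IL-33 that exists in membrane and soluble forms, had 691, 658 and 685 FPKM in the control libraries and 203, 204 and 206 FPKM with IL-1β. The 3.31-fold fall left no overlap between groups, as for 56.4% of all tested genes (log2 change -1.72, SE 0.04, limma adjusted p = 2.52e-10). Its ligand Il33 rose from 7.53 ± 0.492 to 18.5 ± 1.59 FPKM. Il1b rose from 0.43 ± 0.101 to 4.15 ± 1.13 FPKM and the receptor antagonist Il1rn from 5.48 ± 0.738 to 7.46 ± 0.300 FPKM. Il18 was under 1 FPKM in both groups.

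Of 26 tested subunits, kinases and inhibitors, 21 rose and 1 fell (counting 1 at 1 FPKM only with IL-1β), with a median log2 change of 0.50 against 0.023 over all tested genes. Inhibitors were among those that rose. IκBα (Nfkbia) had 12.9, 12.2 and 12.2 FPKM in the control libraries and 108, 109 and 113 FPKM with IL-1β. Tnip1 rose from 26.2 ± 0.756 to 101 ± 2.82 FPKM and Tnfaip3, the deubiquitinase A20, from 2.52 ± 0.154 to 9.92 ± 0.465 FPKM. IκBζ (Nfkbiz), a relative of IκBα that is not counted here as an inhibitor, rose from 6.54 ± 0.473 to 50.0 ± 0.227 FPKM. The subunit genes Nfkb1, Nfkb2 and Relb rose from 23.4 to 62.7, 8.39 to 19.5 and 1.95 to 9.96 FPKM, and Rela from 26.1 to 33.4 FPKM. Tnip3, an A20-binding partner, rose from 0.253 ± 0.119 to 9.11 ± 0.667 FPKM. The 1 gene called lower, Map3k14, the kinase of the non-canonical pathway, stood at 2.93 and 2.42 FPKM, and that call was lost (adjusted p 0.0618 to 0.128 in limma with Benjamini-Hochberg adjustment) when control library 1 or 3 or any IL-1β library was left out, with the replicate block (0.0746) and with no filter (0.0576).

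Promoter sequences were examined because NF-κB, AP-1 and C/EBP proteins are known regulators of genes that IL-1β induces. In the RefSeq promoter table (GRCr8) 9327 of the 11732 tested genes matched, and the 250 bases before the annotated start were searched on both strands, matches of different motifs being free to overlap. The NF-κB consensus was present in 21.7% of the 46 promoters of genes that rose at least 8-fold, 12.9% of 232 that rose at least 2-fold, 8.8% of 114 that fell at least 2-fold and 4.3% of all 9327. These shares are descriptions, and the GC content of the windows was not equal: its median was 54.6%, 57.6%, 59.2% and 60.4% in the same order. The 10 of the 46 with a match were Ccl20, Cxcl1, Cxcl2, Cxcl6, Il6, Lcn2, Nfkbia, Ptx3, Tlr2 and Upp1. Below are 4 of the promoters of genes that rose, written 5′ to 3′ on the gene's strand and ending at the base before the start, with NF-κB consensus matches in capitals; Cxcl2 holds 2 overlapping matches and Tnfaip3 holds 3.
Nfkbia (chr6:78597073-78597322, minus strand): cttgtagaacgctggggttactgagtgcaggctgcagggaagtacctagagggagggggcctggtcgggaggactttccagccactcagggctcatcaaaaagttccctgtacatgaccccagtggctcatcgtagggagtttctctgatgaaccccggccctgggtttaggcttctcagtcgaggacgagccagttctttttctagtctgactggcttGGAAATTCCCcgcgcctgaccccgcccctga
Lcn2 (chr3:36081781-36082030, minus strand): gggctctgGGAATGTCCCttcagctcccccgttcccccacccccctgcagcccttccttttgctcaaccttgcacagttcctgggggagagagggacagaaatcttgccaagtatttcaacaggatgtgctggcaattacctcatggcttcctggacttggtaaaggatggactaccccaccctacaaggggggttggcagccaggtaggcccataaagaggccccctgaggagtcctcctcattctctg
Cxcl2 (chr14:17467256-17467505, minus strand): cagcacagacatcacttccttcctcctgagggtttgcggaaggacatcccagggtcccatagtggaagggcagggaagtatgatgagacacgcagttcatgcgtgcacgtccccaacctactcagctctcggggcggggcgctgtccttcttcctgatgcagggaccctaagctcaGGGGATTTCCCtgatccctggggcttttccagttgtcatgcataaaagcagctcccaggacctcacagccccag
Tnfaip3 (chr1:15543980-15544229, minus strand): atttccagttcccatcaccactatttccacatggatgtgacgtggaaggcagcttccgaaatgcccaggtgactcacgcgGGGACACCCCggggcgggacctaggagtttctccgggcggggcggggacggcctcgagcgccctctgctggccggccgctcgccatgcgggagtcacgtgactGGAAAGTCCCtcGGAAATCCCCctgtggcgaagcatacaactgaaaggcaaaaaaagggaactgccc

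The AP-1 motif TGANTCA was in 21.7% of the 46 promoters, 10.8% of the 232, 8.8% of the 114 and 4.4% of all. Its 10 carriers among the 8-fold risers were Ccl7, Il1a, Map3k8, Mgst1, Mmp10, Mmp12, Mmp13, Mmp3, Mt2A and Orm1. They include 4 matrix metalloproteinases, whereas none of the 10 carriers of the NF-κB consensus is one. The 4 belong to the same gene family, so they need not be separate cases. This difference between the motifs was seen in the matches and was not tested. The promoters of Mmp3 and Mmp13, chosen after their matches were seen, are shown with the motif in capitals. It lies 71 to 65 bases before the start in Mmp3 and 66 to 60 in Mmp13.
Mmp3 (chr8:12925031-12925280, plus strand): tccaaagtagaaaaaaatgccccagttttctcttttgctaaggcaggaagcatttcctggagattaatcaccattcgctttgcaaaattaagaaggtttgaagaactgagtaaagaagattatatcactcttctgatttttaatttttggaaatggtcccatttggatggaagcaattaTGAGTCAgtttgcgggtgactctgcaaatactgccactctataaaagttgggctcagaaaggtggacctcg
Mmp13 (chr8:12782579-12782828, plus strand): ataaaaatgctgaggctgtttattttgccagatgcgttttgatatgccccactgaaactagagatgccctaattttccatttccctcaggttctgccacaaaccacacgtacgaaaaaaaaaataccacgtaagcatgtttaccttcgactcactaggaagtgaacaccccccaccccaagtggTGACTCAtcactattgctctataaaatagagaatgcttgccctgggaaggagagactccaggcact

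The C/EBP motif TTGCNNAA was in 30.4%, 16.4%, 6.1% and 7.3% of the same 4 sets of promoters, with C3, Lcn2, Orm1, Ptges, Ptgs2 and Prg4 among its 14 carriers. A TATA box, TATAAA, was in 26.1%, 16.4%, 13.2% and 6.3%. The SP1 motif GGGCGG went the other way, at 39.1%, 50.4%, 50.0% and 60.5%, and the hypoxia element ACGTG stood at 15.2%, 17.2%, 8.8% and 22.8%. The CArG box bound by serum response factor was in 0%, 0.9%, 2.6% and 1.2%, and the interferon-stimulated response element in 2.2%, 3.9%, 3.5% and 2.5%. Only exact matches to CCWWWWWWGG, W being A or T, counted as a CArG box, and the Acta2 promoter held 0. Over all genes called higher, of any size, the NF-κB consensus was in 5.2%.

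**Figure D3:**
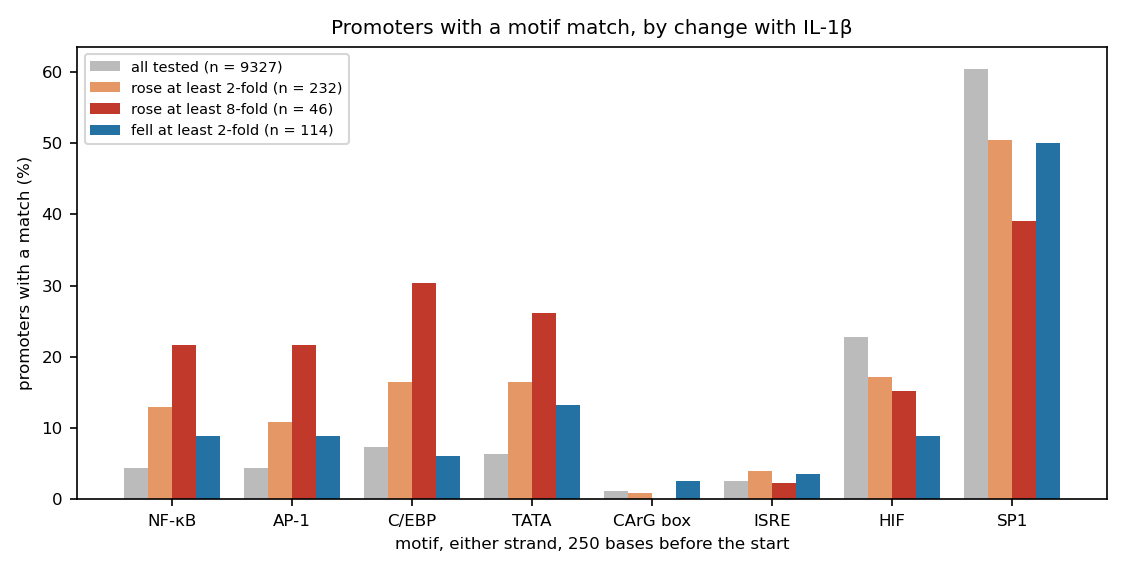
Share of promoters (%, vertical axis) with each motif on either strand within 250 bases before the start, for all tested genes, genes that rose at least 2-fold or 8-fold and genes that fell at least 2-fold. NF-κB, AP-1, C/EBP and TATA matches stand at 21.7% to 30.4% among 8-fold risers and 4.3% to 7.3% among all tested genes.

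Genes of the transcription factors that bind those motifs changed in different directions. Cebpd had 47.3, 53.8 and 50.5 FPKM in the control libraries and 152, 155 and 165 FPKM with IL-1β, and Cebpb rose from 50.4 ± 0.899 to 150.2 ± 22.2 FPKM. Among AP-1 genes, Junb rose from 100.0 to 160.2 FPKM and Fosl1 from 70.7 to 97.2 FPKM, while Jun fell from 54.8 to 41.1 FPKM and Fos had 8.4, 10.6 and 8.28 FPKM in the control libraries and 3.36, 3.28 and 3.03 FPKM with IL-1β. The groups did not overlap for any of these genes, which held for 56.4% of all tested genes. Of 17 tested AP-1, ATF, MAF and C/EBP genes, 10 rose and 5 fell. Maf, a large MAF protein, fell from 10.8 to 5.51 FPKM.

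MAP kinase genes changed in both directions: of 30 tested kinases, phosphatases and Sprouty inhibitors, 10 rose and 7 fell (counting 1 at 1 FPKM only with IL-1β). With libraries rescaled to a common sum 8 rose and 8 fell. Over all tested genes 26.5% were called higher and 20.2% lower. Map3k8, the kinase TPL2 that NF-κB signalling releases, rose from 0.56 ± 0.0819 to 14.5 ± 0.448 FPKM. Mapk14, the p38α kinase, stood at 31.6 and 31.0 FPKM and Dusp1, its phosphatase, at 45.3 and 44.0 FPKM, neither past the test, and Dusp14 fell from 22.7 to 14.3 FPKM.

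Factors that shorten the life of inflammatory mRNAs changed in both directions. The endonuclease Zc3h12a, known as regnase-1, had 8.78, 7.07 and 6.67 FPKM in the control libraries and 88.1, 84.2 and 81.96 FPKM with IL-1β (log2 change 3.34, SE 0.08, limma adjusted p = 5.20e-10), and Zfp36l1 rose from 31.8 ± 0.953 to 88.5 ± 2.41 FPKM. Zfp36, or tristetraprolin, fell from 29.5 ± 1.06 to 22.3 ± 0.226 FPKM. Of 12 tested genes of this list, 6 rose and 2 fell.

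Among innate immune receptors Tlr2, which senses bacterial lipopeptides and matrix fragments, had 2.48, 3.02 and 3.05 FPKM in the control libraries and 97.1, 94.1 and 92.5 FPKM with IL-1β, and Lbp, the lipopolysaccharide-binding protein, rose from 3.54 ± 0.266 to 42.5 ± 1.75 FPKM. Tlr4 stayed low, rising from 1.01 to 1.71 FPKM, and Tlr3 was not past the test at 1.04 and 1.103 FPKM. Nlrp3, the inflammasome sensor, rose from 0.387 ± 0.107 to 5.81 ± 0.480 FPKM and Casp4 fell from 14.9 to 9.86 FPKM. Of 18 tested innate immune receptors and adaptors, 11 rose and 2 fell (counting 2 at 1 FPKM only with IL-1β).

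Interferon-stimulated genes that define a type I response, Ifit3, Mx1, Oas1a and Rsad2, were below 0.2 FPKM in every library, and Isg15 stood at 0.723 and 1.45 FPKM. Isg15 was called higher, but not without control library 1 or 3 or any IL-1β library (limma adjusted p 0.0757 to 0.136) nor with no filter (0.0645). Irf1 rose from 9.57 to 11.8 FPKM and Irf7 stood at 2.48 and 2.25 FPKM, not past the test. Cxcl10, a chemokine driven by interferon and NF-κB, stood at 3.52 ± 0.405 and 3.14 ± 0.607 FPKM and was not called. Of 26 tested interferon-stimulated genes, 14 rose and 2 fell. Socs3, the STAT3 feedback inhibitor, rose from 15.5 ± 1.43 to 57.5 ± 0.827 FPKM, Jak2 from 19.7 ± 0.766 to 45.8 ± 1.104 FPKM, and Stat3 stood at 44.2 and 46.1 FPKM without a call.

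Of 10 tested CXC chemokine and receptor genes, 9 rose and 0 fell (counting 2 at 1 FPKM only with IL-1β). Cxcl6, a neutrophil attractant, had 14.1, 15.1 and 14.2 FPKM in the control libraries and 625, 597 and 596 FPKM with IL-1β; Cxcl1, Cxcl2 and Cxcl3 are close relatives, and the split of reads between them is uncertain. Cxcl12, which holds stem and B cells in tissue, rose from 63.7 ± 1.26 to 289 ± 5.39 FPKM, its scavenger receptor Ackr3 from 18.1 ± 0.615 to 40.8 ± 2.12 FPKM, and Cxcl16 from 10.0 ± 0.210 to 89.7 ± 3.45 FPKM. Cxcl14 rose from 4.95 to 7.12 FPKM. On the CC side 11 genes were tested and 9 rose and 0 fell (counting 3 at 1 FPKM only with IL-1β). Ccl7 rose from 159 ± 6.25 to 1338 ± 90.3 FPKM and Cx3cl1, the membrane-bound fractalkine, from 0.433 ± 0.0945 to 34.1 ± 0.393 FPKM. Ccl5 was under the filter, listed at 0 in every control library and at 0.76, 0 and 0.49 FPKM with IL-1β.

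Among cytokines, Lif, a member of the IL-6 family, had 7.55, 7.05 and 5.55 FPKM in the control libraries and 128, 120.5 and 115 FPKM with IL-1β (18.0-fold; log2 change 3.99, SE 0.11, limma adjusted p = 1.64e-09). Il11 rose from 3.43 ± 0.246 to 29.3 ± 2.07 FPKM, and the shared receptor chains Il6st and Osmr from 56.6 ± 2.12 to 121 ± 3.27 FPKM and 25.9 ± 1.17 to 47.3 ± 0.703 FPKM. Of 12 tested members, 7 rose and 2 fell. The macrophage growth factor Csf1, abundant in the controls, rose from 217 ± 1.40 to 380.0 ± 8.03 FPKM. Tnf, the other classical driver of cartilage breakdown, was not past the filter, at 0.0333 and 0.377 FPKM, and neither was Tnfsf11 (RANKL), listed at 0 in all 6 libraries. Its decoy receptor Tnfrsf11b (osteoprotegerin) rose from 16.6 to 21.6 FPKM.

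Birc3, a caspase and NF-κB regulator, rose from 2.58 ± 0.419 to 9.99 ± 0.230 FPKM and Bcl2a1, an anti-apoptotic BCL2 relative, from 0.83 ± 0.440 to 6.06 ± 0.465 FPKM. On the other side the death receptor Fas rose from 8.20 ± 0.954 to 16.99 ± 0.340 FPKM, Casp8 from 5.45 to 10.9 FPKM and the BH3 protein gene Bid from 6.04 to 18.3 FPKM. Of 29 tested regulators of cell death, 12 rose and 5 fell, and Bak1 was among the falls (29.2 to 22.9 FPKM). After common-sum scaling 8 rose and 5 fell.

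**Figure D4:**
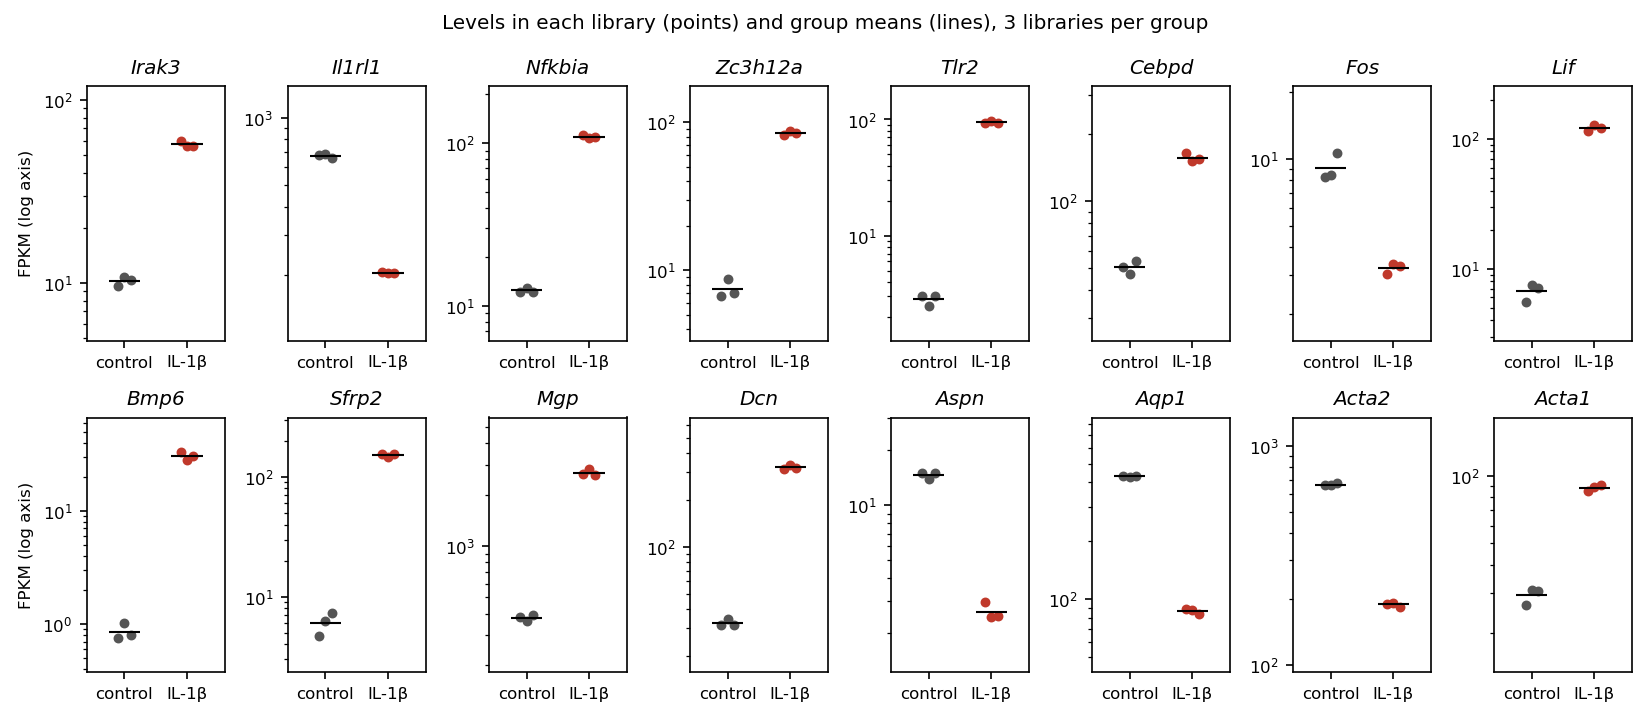
FPKM in each library (points, log axis) and group means (lines) for 16 genes discussed in the text, control in grey and IL-1β in red. In none of the 16 do the groups overlap, which held for 56.4% of all tested genes.

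Genes around nitric oxide synthesis rose at several steps. The arginine importer Slc7a2 had 8.41, 7.22 and 8.7 FPKM in the control libraries and 31.03, 32.6 and 32.5 FPKM with IL-1β. Ass1, which rebuilds arginine from citrulline, rose from 1.46 ± 0.1002 to 29.6 ± 0.48 FPKM. Gch1, the first enzyme of the cofactor tetrahydrobiopterin, rose from 5.84 ± 0.922 to 19.2 ± 1.18 FPKM, its regulatory partner Gchfr from 2.61 ± 1.05 to 11.9 ± 1.93 FPKM, whereas the next enzyme, Pts, fell from 7.58 ± 0.646 to 4.72 ± 0.415 FPKM. Among polyamine genes Odc1 fell from 131 to 115 FPKM and its regulator Azin1 from 57.1 to 46.7 FPKM, and the spermine oxidase Smox rose from 1.41 to 6.31 FPKM. Of 24 tested genes of these routes, 14 rose and 6 fell (counting 2 at 1 FPKM only with IL-1β), and 12 rose and 8 fell after common-sum scaling.

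In the prostaglandin route the phospholipases that release arachidonic acid rose too. Secreted Pla2g2a had 0.71, 0.42 and 1.06 FPKM in the control libraries and 138, 120.1 and 121 FPKM with IL-1β, and cytosolic Pla2g4a rose from 22.1 ± 2.38 to 54.1 ± 1.93 FPKM. Among prostaglandin E receptors Ptger4 (2.49 and 2.48 FPKM) and Ptger2 (2.2 and 2.01 FPKM) were not called. Ptger1 was called lower (1.88 and 1.23 FPKM), but not without control library 1 or 2 or any IL-1β library (limma adjusted p 0.0545 to 0.142), nor with no filter, with the 6 compared libraries alone or with the replicate block (0.0662, 0.0793 and 0.0567). Of 19 tested prostanoid and leukotriene genes, 12 rose and 3 fell (counting 1 at 1 FPKM only with IL-1β).

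Of 31 tested metal-handling genes, 16 rose and 3 fell (counting 1 at 1 FPKM only with IL-1β). The zinc importer Slc39a14 had 33.5, 32.5 and 32.7 FPKM in the control libraries and 108, 110.2 and 110.1 FPKM with IL-1β. The metallothioneins Mt2A and Mt1 rose from 145 ± 14.8 to 1759 ± 62.4 FPKM and 96.2 ± 2.32 to 578 ± 24.6 FPKM; they are close relatives and their separate levels are uncertain. For iron, the importer Slc11a2 rose from 20.2 ± 0.752 to 69.8 ± 1.37 FPKM, the ferrireductase Steap2 from 34.6 ± 0.348 to 109 ± 1.31 FPKM, its relative Steap1 from 57.7 ± 2.94 to 172 ± 9.51 FPKM, and the mitochondrial iron importer Slc25a37 from 7.68 ± 0.368 to 26.1 ± 1.26 FPKM. Tfrc, the transferrin receptor, rose only from 74.0 to 86.8 FPKM, and Aco1, an iron-sensing RNA-binding protein, fell from 30.4 to 25.2 FPKM. The iron exporter Slc40a1 stood at 0.717 and 0.717 FPKM.

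Of 47 tested redox genes, 32 rose and 6 fell (counting 2 at 1 FPKM only with IL-1β). Mgst1, a membrane glutathione transferase, had 4.71, 5.47 and 5.26 FPKM in the control libraries and 59.7, 57.01 and 59.8 FPKM with IL-1β, and the peroxiredoxin Prdx5 rose from 538 ± 23.7 to 1277 ± 69.2 FPKM. The classical NRF2 target Gclm stood at 21.9 and 22.1 FPKM without a call, and Nqo1 fell from 418 ± 1.15 to 345 ± 4.96 FPKM. Secreted Gpx3 fell from 67.1 ± 0.773 to 27.1 ± 0.813 FPKM, and Txnip, the thioredoxin inhibitor, from 83.3 ± 1.33 to 43.9 ± 0.845 FPKM.

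Oxygen-sensing genes rose, 17 of 22 tested with 0 lower, at a median log2 change of 0.80. Genes of the hypoxia-inducible factors were among them: Epas1 (HIF-2α), known in cartilage as an inducer of catabolic genes, had 11.7, 10.1 and 11.1 FPKM in the control libraries and 39.1, 42.99 and 43.3 FPKM with IL-1β, and Hif1a rose from 68.0 ± 1.57 to 126 ± 0.632 FPKM. Their hydroxylase Egln3 rose from 2.15 to 118 FPKM, the vasodilator peptide Adm from 31.7 ± 4.02 to 167 ± 3.58 FPKM, and Vhl stood at 17.0 and 18.5 FPKM without a call. Glycolytic genes followed with 24 of 33 higher and 4 lower. The lactate and pyruvate carriers Slc16a1 and Slc16a3 rose from 49.1 ± 2.12 to 158 ± 3.79 FPKM and 176 ± 1.23 to 275 ± 2.82 FPKM, Hk2 from 18.8 to 31.7 FPKM and Pdk1 from 43.7 to 73.8 FPKM, while Pdk4 fell from 9.14 to 5.61 FPKM.

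Lipid genes showed a few large rises. Cyp7b1, an oxysterol hydroxylase, had 1.76, 1.85 and 1.77 FPKM in the control libraries and 38.8, 34.4 and 35.9 FPKM with IL-1β, and Ch25h, which makes 25-hydroxycholesterol, rose from 0.257 ± 0.0651 to 3.99 ± 0.371 FPKM. The cholesterol synthesis gene Sqle stood at 26.4 and 27.2 FPKM without a call. Angptl4, a lipoprotein lipase inhibitor, rose from 40.2 ± 1.44 to 327 ± 3.42 FPKM, the lipid droplet protein Plin2 from 81.0 ± 1.94 to 179.5 ± 5.72 FPKM and the fatty acid carriers Fabp4 and Fabp5 from 16.7 to 169.8 and 874 to 1605 FPKM. Pparg fell from 1.52 ± 0.121 to 0.73 ± 0.0755 FPKM, and the adipocyte genes Adipoq (0.48 and 0.127 FPKM) and Plin1 (0.683 and 0.113 FPKM) stayed under 1 FPKM in every library.

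Kmo, an enzyme of tryptophan breakdown, averaged 0 and 0.02 FPKM. Nampt, the enzyme of NAD salvage, rose from 33.4 ± 2.40 to 57.3 ± 0.969 FPKM, and Bst1, which consumes NAD, from 31.8 ± 1.35 to 89.1 ± 2.67 FPKM. Of 13 tested purine signalling genes, 9 rose and 1 fell (counting 2 at 1 FPKM only with IL-1β). The adenosine receptor Adora2b had 9.3, 8.95 and 8.57 FPKM in the control libraries and 25.8, 27.03 and 26.1 FPKM with IL-1β, the ATP and UTP receptor P2ry2 rose from 2.87 ± 0.163 to 9.32 ± 1.05 FPKM and the ectonucleotidase Nt5e from 9.45 ± 0.146 to 16.7 ± 0.386 FPKM. The gene that fell was the nucleoside carrier Slc29a1 (39.0 to 30.1 FPKM).

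Collagen genes fell almost throughout. All 6 chains of collagens II, IX and XI fell, at a median log2 change of -1.82; Col11a2 had 30.9, 31.2 and 32.4 FPKM in the control libraries and 5.84, 6.7 and 6.43 FPKM with IL-1β. Of 21 tested chains of other types, 4 rose and 17 fell (counting 1 at 1 FPKM only with IL-1β), with a median of -0.82. The microfibrillar chains Col6a1, Col6a2 and Col6a3 fell from 1104 to 424, 949 to 397 and 134 to 38.9 FPKM, and Col5a3 from 24.2 ± 0.476 to 6.28 ± 0.342 FPKM. The 4 that rose were Col8a1, Col4a1, Col4a2 and Col7a1, from 21.3 to 31.5, 50.5 to 67.5, 42.8 to 50.2 and 0.73 to 2.13 FPKM. Of the collagen-modifying enzymes 15 of 24 fell and 6 rose. The prolyl hydroxylase subunits split, P4ha2 rising from 114 ± 1.35 to 201 ± 3.83 FPKM and P4ha1 falling from 414 ± 11.2 to 337 ± 1.56 FPKM, and the lysyl hydroxylase Plod2 rose from 302 to 367 FPKM.

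Among cartilage matrix proteins 30 were tested, of which 4 rose and 22 fell (counting 4 at 1 FPKM only in control). The small leucine-rich proteoglycans went different ways. Decorin (Dcn), which binds collagen fibrils and TGF-β, had 34.5, 31.4 and 31.5 FPKM in the control libraries and 336, 321 and 315 FPKM with IL-1β, and lumican (Lum) rose from 87.8 ± 3.29 to 765 ± 26.1 FPKM. Asporin (Aspn), a close relative of decorin, had 13.8, 15.1 and 15.04 FPKM in the control libraries and 2.44, 2.49 and 2.94 FPKM with IL-1β, and fibromodulin (Fmod) fell from 122 ± 1.69 to 96.2 ± 1.99 FPKM. Each of the 4 left the groups apart, as did 56.4% of all tested genes. Versican (Vcan), the large proteoglycan of loose tissue, rose from 114 ± 3.09 to 179.8 ± 4.11 FPKM. Chondromodulin (listed as Lect1), an angiogenesis inhibitor of cartilage, fell from 12.4 ± 0.282 to 2.06 ± 0.365 FPKM and the matrilins Matn1 and Matn3 from 3.84 to 0.613 and 9.12 to 3.02 FPKM.

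Elastic fibre genes split: of 22 tested, 7 rose and 11 fell. Emilin1, an elastic fibre glycoprotein, had 57.1, 56.7 and 55.9 FPKM in the control libraries and 205, 204 and 213 FPKM with IL-1β, and the cross-linking enzyme Lox rose from 471 ± 14.3 to 748 ± 5.87 FPKM. Its relatives Loxl3 and Loxl4 fell from 209 ± 1.16 to 66.8 ± 2.82 FPKM and 32.8 ± 1.57 to 10.7 ± 0.0252 FPKM, and Fbln5 from 27.6 to 15.2 FPKM. Among matricellular genes Tgfbi fell from 212 ± 1.21 to 74.8 ± 2.26 FPKM, connective tissue growth factor (Ctgf) from 1199 ± 11.2 to 430.5 ± 11.9 FPKM and Wisp2 from 36.3 ± 0.381 to 9.96 ± 0.581 FPKM, whereas Nov, like Ctgf and Wisp2 a CCN protein, rose from 9.55 ± 0.804 to 31.0 ± 1.19 FPKM.

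Genes of sulfated sugar chain synthesis had no common direction: of 42 tested, 13 rose and 14 fell (counting 1 at 1 FPKM only in control). With libraries rescaled to a common sum 12 rose and 18 fell. Over all tested genes 26.5% were called higher and 20.2% lower. Ugdh, which makes the glucuronic acid donor, rose from 170.2 ± 2.18 to 280.0 ± 3.81 FPKM, and the sulfotransferase Chst3 fell from 4.86 ± 0.192 to 1.96 ± 0.123 FPKM. The sulfate carrier Slc26a2 stood at 3.87 and 3.6 FPKM and the sulfate-activating enzyme Papss2 at 35.4 and 33.8 FPKM, without a call; Papss2 was called lower after common-sum scaling (limma adjusted p = 0.0262). Of 10 tested hyaluronan genes, 5 rose and 2 fell. The synthase Has2 rose from 23.0 ± 0.650 to 37.3 ± 1.13 FPKM, the surface hyaluronidase Tmem2 from 6.21 ± 0.419 to 23.6 ± 0.590 FPKM and the receptor Cd44 from 164 ± 1.20 to 219 ± 6.75 FPKM. Those that fell were the receptor Hmmr (61.1 to 47.9 FPKM) and Cemip (3.97 to 3.32 FPKM), which takes part in hyaluronan breakdown; the call of Cemip was lost without control library 1 or 2 or IL-1β library 3 (limma adjusted p 0.0562 to 0.0867).

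Of 19 tested genes of plasmin activation, clotting and their inhibitors, 11 rose and 5 fell (counting 1 at 1 FPKM only with IL-1β and 1 at 1 FPKM only in control). Tissue plasminogen activator (Plat) had 31.3, 32.2 and 30.3 FPKM in the control libraries and 79.6, 74.8 and 78.1 FPKM with IL-1β, urokinase (Plau) rose from 43.3 ± 1.16 to 60.8 ± 1.19 FPKM, and the inhibitor Serpine2 from 655 ± 6.84 to 1247 ± 25.04 FPKM. The anticoagulant receptor Thbd, thrombomodulin, rose from 7.69 ± 0.183 to 56.1 ± 1.72 FPKM and tissue factor pathway inhibitor (Tfpi) from 34.0 ± 0.545 to 66.2 ± 4.41 FPKM. The thrombin receptor F2r fell from 37.3 ± 0.788 to 24.4 ± 0.662 FPKM. The macrophage elastase gene Mmp12 rose from 1.99 ± 0.252 to 23.7 ± 2.10 FPKM and Mmp2, abundant in control, from 206 ± 6.79 to 338 ± 8.15 FPKM, while the membrane protease Mmp16 stood at 14.6 and 13.5 FPKM without a call. Mmp16 was called lower after common-sum scaling, with median-of-ratios scaling and with the 6 compared libraries alone (limma adjusted p 0.0115, 0.02 and 0.0417). Adamts15, an aggrecanase relative, rose from 2.07 to 4.71 FPKM and Adamts7 from 1.91 to 4.07 FPKM.

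Growth factor genes moved in both directions: of 45 tested ligands and receptors, 20 rose and 16 fell. The balance rested on scaling, with 16 higher and 19 lower after common-sum scaling and 18 and 18 after median-of-ratios scaling. The insulin-like growth factors fell, Igf2 from 514 ± 5.89 to 226 ± 2.89 FPKM and Igf1 from 11.6 ± 0.674 to 3.32 ± 0.365 FPKM, together with Igfbp3 (66.7 to 22.8 FPKM) and Igfbp4 (20.8 to 8.18 FPKM). Fgfr3, the receptor that restrains growth-plate chondrocytes, had 27.04, 28.04 and 27.3 FPKM in the control libraries and 6.37, 6.98 and 6.57 FPKM with IL-1β, and Fgfr2 fell from 59.5 ± 1.24 to 26.3 ± 1.35 FPKM. Epiregulin (Ereg), a ligand of the EGF receptor, rose from 8.57 ± 1.34 to 91.3 ± 10.5 FPKM, and the vessel factor Angpt1 from 3.68 ± 0.271 to 26.7 ± 0.405 FPKM. Hbegf stood at 144 and 138 FPKM without a call, but was called lower after common-sum scaling (limma adjusted p = 0.0367).

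Of 28 tested BMP pathway genes, 10 rose and 11 fell (counting 1 at 1 FPKM only with IL-1β). Bmp6 had 1.02, 0.8 and 0.75 FPKM in the control libraries and 28.1, 30.2 and 33.3 FPKM with IL-1β. Its rise was 35.6-fold in mean FPKM, and its log2 change in FPKM + 1 was 4.09 (SE 0.11, limma adjusted p = 8.71e-10). Bmp2 rose from 5.56 ± 0.679 to 17.6 ± 0.949 FPKM, and the antagonist Grem1 from 167 ± 3.69 to 331 ± 4.61 FPKM. The ID targets Id1 and Id2 fell from 225 ± 6.03 to 156 ± 7.04 FPKM and 171 ± 6.53 to 94.1 ± 5.27 FPKM, and the inhibitory Smad6 from 30.2 ± 1.61 to 15.5 ± 0.967 FPKM. In the TGF-β branch 28 genes were tested, of which 14 rose and 7 fell. The activin subunit Inhba rose from 25.5 ± 0.882 to 64.02 ± 1.58 FPKM with its binder Fst (85.1 to 157 FPKM). Tgfb3 fell from 92.1 ± 0.811 to 33.5 ± 0.254 FPKM and Tgfb2 from 22.4 ± 0.627 to 13.2 ± 0.999 FPKM. Tgfb1 stood at 80.2 and 84.7 FPKM without a call.

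Of 37 tested Wnt pathway genes, 5 rose and 24 fell (counting 1 at 1 FPKM only with IL-1β and 4 at 1 FPKM only in control). The falls included the targets Axin2 (2.22 to 1.32 FPKM) and Lef1 (11.98 to 6.07 FPKM) and the receptor Lgr4 (37.5 to 14.2 FPKM). The secreted modulator Sfrp2 had 6.29, 7.29 and 4.68 FPKM in the control libraries and 146, 156 and 154 FPKM with IL-1β (24.99-fold), and Wnt5a rose from 17.3 ± 0.768 to 31.4 ± 0.803 FPKM. Of 13 Notch genes, 5 rose and 7 fell (counting 2 at 1 FPKM only in control): the ligand Jag1 fell from 4.09 ± 0.107 to 2.05 ± 0.0985 FPKM, the atypical ligand Dlk1 from 172 ± 6.17 to 68.6 ± 0.761 FPKM, and the nuclear effector Rbpj rose 1.98-fold. PTHrP receptor Pth1r fell from 9.71 ± 0.416 to 5.72 ± 0.193 FPKM, whereas the ligands of the growth-plate loop, Pthlh (0.237 and 0.117 FPKM) and Ihh (0.0433 and 0.01 FPKM), averaged under 1 FPKM. Ankh, the pyrophosphate exporter, fell from 40.2 ± 0.640 to 19.1 ± 0.612 FPKM.

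Of 16 tested genes linked to pain, 7 rose and 5 fell. The kinin receptor Bdkrb1 rose from 10.7 ± 0.726 to 16.8 ± 1.12 FPKM. Preproenkephalin (Penk), the opioid peptide precursor and an abundant transcript in control, had 685, 686 and 714 FPKM in the control libraries and 254, 254 and 247 FPKM with IL-1β. The endothelin receptor Ednrb rose from 3.66 ± 0.0436 to 10.2 ± 0.735 FPKM. Substance P (Tac1) was near 0 in both groups (0.0333 and 0.0333 FPKM).

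Of 39 tested transcription factors of the limb and of cartilage, 10 rose and 21 fell (counting 2 at 1 FPKM only in control). Pitx1, a hindlimb factor, fell from 53.2 ± 1.93 to 33.5 ± 0.327 FPKM, Runx2 from 6.18 ± 0.39 to 4.10 ± 0.448 FPKM and Twist1 from 84.0 ± 1.30 to 55.3 ± 2.30 FPKM, while its relative Twist2 rose from 23.7 ± 0.918 to 40.6 ± 1.36 FPKM and Prrx1, a mesenchymal factor, from 101 ± 1.52 to 171 ± 2.64 FPKM. Among 13 tested HOX genes 1 rose and 5 fell. Hoxa10 fell from 16.7 to 10.6 FPKM, Hoxa9 from 4.72 to 3.30 FPKM and Hoxc10 from 15.5 to 11.4 FPKM, and Hoxc4 rose from 1.97 to 3.66 FPKM. The other two falls were lost when 1 library was left out, Hoxa11 without control library 3 (limma adjusted p = 0.0541) and Hoxd10 without control library 1 or 3 or IL-1β library 1 or 3 (limma adjusted p 0.0895 to 0.154). Hoxd10 was also not called with the replicate block (0.0516), with the 6 compared libraries alone (0.0729) or with no filter (0.0734).

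Of 48 tested contractile and actin genes, 4 rose and 37 fell (counting 2 at 1 FPKM only in control), with a median log2 change of -0.30. Smooth muscle actin (Acta2) had 662, 674 and 660.5 FPKM in the control libraries and 192, 185 and 190.3 FPKM with IL-1β, calponin (Cnn1) fell from 22.5 ± 1.31 to 6.25 ± 0.620 FPKM, transgelin (Tagln) from 1372 ± 24.7 to 674 ± 20.3 FPKM, the focal adhesion protein vinculin (Vcl) from 96.03 ± 1.1 to 49.1 ± 0.422 FPKM and the transcription factor Srf from 23.4 ± 0.470 to 17.5 ± 0.526 FPKM. The 4 that rose were Ankrd1 (14.8 to 51.0 FPKM), Des (16.9 to 30.1 FPKM), Tagln2 (782 to 1016 FPKM) and Yap1 (58.2 to 64.1 FPKM); with libraries rescaled to a common sum 3 rose, Yap1 not being called. Integrin chains went both ways: the collagen receptor chain Itga2 rose from 1.58 ± 0.367 to 10.96 ± 0.168 FPKM, and Itga11, another collagen receptor chain, and the laminin receptor chain Itga6 fell from 19.9 ± 0.315 to 10.02 ± 0.507 FPKM and 64.8 ± 2.80 to 22.9 ± 1.25 FPKM. N-cadherin (Cdh2) rose from 6.997 ± 0.303 to 18.4 ± 0.512 FPKM and cadherin-11 (Cdh11) fell from 71.6 ± 1.70 to 44.8 ± 0.469 FPKM. The leukocyte adhesion molecule Icam1 rose from 23.7 ± 0.162 to 46.5 ± 1.16 FPKM, and Vcam1 only from 0.963 to 2.85 FPKM.

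Of 30 tested channel genes, 6 rose and 14 fell (counting 4 at 1 FPKM only in control). After common-sum scaling 2 rose and 16 fell. The water channel Aqp1 had 428, 433 and 429 FPKM in the control libraries and 87.4, 83.3 and 88.8 FPKM with IL-1β (4.97-fold lower; log2 change -2.30, SE 0.03, limma adjusted p = 2.58e-11). The stretch-sensitive potassium channel Kcnk2 fell from 10.8 ± 0.377 to 2.28 ± 0.389 FPKM and Piezo2 from 1.44 ± 0.08 to 0.457 ± 0.0513 FPKM. Piezo1, the other stretch-gated channel, rose from 25.5 to 29.0 FPKM, though not with libraries rescaled to a common sum (limma adjusted p = 0.0931), and Trpv4, the osmosensor of cartilage, stood at 7.57 ± 0.321 and 6.78 ± 0.535 FPKM without a call. Trpv4 was called lower after common-sum scaling (limma adjusted p = 0.0268) and with median-of-ratios scaling (0.0475).

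For respiratory chain and ribosomal protein genes the counts rested on scaling. Among 77 respiratory chain genes 26 rose and 1 fell, at a median of 0.10 log2, and 14 rose and 7 fell with libraries rescaled to a common sum. Of 84 cytosolic ribosomal protein genes 23 rose and 1 fell (11 and 7 after that rescaling), and of 73 mitochondrial ones 11 rose and 6 fell (6 and 16). Many ribosomal protein genes have processed copies, so their levels are uncertain. Proteasome genes split 9 higher and 10 lower of 46 (6 and 21), and the rises included Psmb9 (3.47 to 9.53 FPKM), Psme1 (82.6 to 131 FPKM) and Psme2 (23.2 to 44.4 FPKM), which belong to the immunoproteasome and its activator. Lysosomal and autophagy genes rose in 35 of 52 cases and fell in 4 (27 and 8 after rescaling): cathepsin B (Ctsb) rose from 346 ± 8.36 to 501 ± 11.2 FPKM, Ctsh from 60.9 ± 1.48 to 114 ± 5.96 FPKM, and cathepsin K (Ctsk) fell from 36.8 ± 1.43 to 28.7 ± 1.90 FPKM.

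Of 61 tested cell cycle genes, 19 rose and 26 fell (11 and 28 with libraries rescaled to a common sum). Among those that rose Ccne1, the cyclin of the start of replication, had 25.6, 24.02 and 25.9 FPKM in the control libraries and 41.1, 38.7 and 41.8 FPKM with IL-1β, and the replication genes Mcm6 and Cdt1 rose from 104 to 121 and 21.3 to 26.6 FPKM. The mitosis genes Cdc20, Plk1 and Kif23 fell, Cdc20 from 173 ± 2.60 to 119 ± 4.70 FPKM, Plk1 from 93.9 ± 2.96 to 68.6 ± 2.71 FPKM and Kif23 from 55.5 ± 1.73 to 37.1 ± 1.31 FPKM. Genes of the ATF4 stress response mostly fell, 20 of 31 lower and 4 higher: Chac1 fell from 25.6 ± 2.13 to 12.3 ± 0.950 FPKM, Trib3 from 27.2 ± 1.22 to 16.5 ± 1.603 FPKM and Nupr1 from 156 ± 3.53 to 87.02 ± 0.754 FPKM, while Gdf15 rose from 2.63 ± 0.611 to 9.89 ± 1.03 FPKM and Ddit4 from 21.2 ± 0.804 to 59.6 ± 1.90 FPKM.

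Among clock genes, 21 were tested and 7 rose and 3 fell (counting 2 at 1 FPKM only with IL-1β). With libraries rescaled to a common sum 5 rose and 5 fell. Over all tested genes 26.5% were called higher and 20.2% lower. The core activator Arntl stood at 11.3 and 12.1 FPKM without a call, and the repressors Bhlhe40 and Bhlhe41 moved oppositely, Bhlhe40 rising from 16.8 ± 0.807 to 32.5 ± 0.695 FPKM and Bhlhe41 falling from 13.97 ± 0.285 to 7.44 ± 0.387 FPKM. Of 15 tested glucocorticoid genes, 8 rose and 4 fell. The glucocorticoid-activating enzyme Hsd11b1 rose from 11.6 ± 1.35 to 32.8 ± 1.44 FPKM and the receptor Nr3c1 from 17.7 ± 0.289 to 24.6 ± 0.461 FPKM. Among the hormone's targets Errfi1 rose from 48.5 to 132 FPKM, as did Mt1 and Angptl4, given above, while Fkbp5 and Sgk1 fell from 26.2 to 21.6 and 27.1 to 17.02 FPKM. Of 49 tested histone and DNA modifying enzymes, 12 rose and 5 fell (counting 1 at 1 FPKM only with IL-1β), and 8 rose and 13 fell after rescaling to a common sum. Hdac11 rose from 0.777 ± 0.1002 to 4.62 ± 0.507 FPKM and Ezh2 fell from 52.7 ± 1.67 to 41.9 ± 0.825 FPKM.

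**Figure D5:**
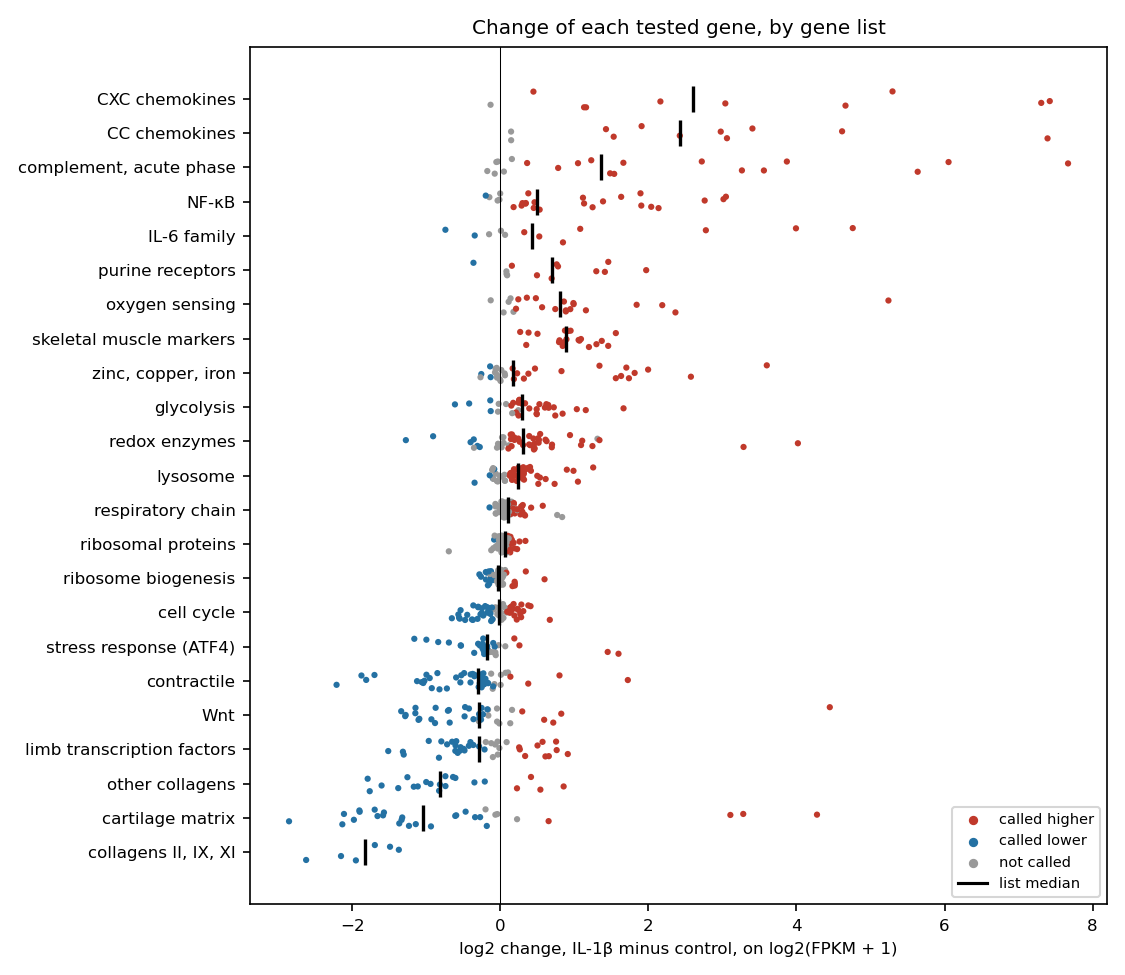
Log2 change of each tested gene (points) in 23 gene lists, red called higher, blue called lower and grey not called, with the list median as a black bar. Medians run from 2.60 for CXC chemokines to -1.82 for collagens II, IX and XI.

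Markers of other cell types were also examined. Of 31 measured skeletal muscle markers 21 passed the filter, and 21 rose, 1 of them at 1 FPKM only with IL-1β, with a median log2 change of 0.89, and 20 were called with libraries rescaled to a common sum. Their summed level was 349 to 380 FPKM in control and 762 to 799 with IL-1β. Skeletal actin (Acta1) had 30.8, 30.7 and 26.6 FPKM in the control libraries and 89.2, 90.8 and 85.4 FPKM with IL-1β, cardiac actin (Actc1) rose from 56.6 ± 0.633 to 141 ± 6.60 FPKM, the acetylcholine receptor chain Chrna1 from 2.21 ± 0.0907 to 7.82 ± 0.216 FPKM and the myogenic factor Myod1 from 7.9 to 10.3 FPKM. The untested muscle markers reached at most 0.46 FPKM. The part of muscle RNA in the changes above, Pvalb and Des included, was not tested. Defining macrophage genes were near 0, Csf1r at 0.363 and 0.197 FPKM, Cd163 at 0.0133 and 0.107 FPKM and Ptprc at 0.0833 and 0.0867 FPKM, and the lysozyme gene Lyz2 fell from 9.20 ± 0.830 to 1.96 ± 0.0513 FPKM. Of 14 measured macrophage markers 6 passed the filter, 1 of which rose and 2 fell, 1 of the latter at 1 FPKM only in control. The summed level of the 14 was 18.2 to 21.0 FPKM in control and 12.2 to 13.5 with IL-1β. The endothelial marker Pecam1 averaged 0.13 and 0.19 FPKM and Cdh5 0.103 and 0.167 FPKM, and the 6 measured lymphocyte and neutrophil markers reached at most 0.59 FPKM in any library. Of 17 measured dermal fibroblast markers 12 passed the filter, of which 5 rose and 3 fell. Their summed level was 2540 to 2630 FPKM in control and 2580 to 2600 with IL-1β, most of it Col1a1 in control. Dcn, Lum, Sfrp2 and Twist2, described above, are among those that rose, and Col1a1 fell from 1973 to 877 FPKM. Pi16 averaged 0.69 and 0.78 FPKM and Dpp4 0.09 and 0.0433 FPKM. Of 7 measured synovial lining markers 4 passed the filter, of which 3 rose and 0 fell, with a summed level of 428 to 442 FPKM in control and 845 to 877 with IL-1β. The other of the 4, Thy1, is also on the dermal fibroblast list, was not called and held most of the control sum. With libraries rescaled to a common sum 3 rose and 1, Thy1, fell. Prg4, the gene of lubricin, which superficial chondrocytes also make, rose from 13.7 ± 0.189 to 284 ± 12.7 FPKM, Cd55 from 19.7 ± 0.667 to 64.5 ± 1.095 FPKM and Pdpn from 75.5 ± 1.36 to 200.2 ± 2.43 FPKM. Clic5, Htra4 and Tspan15 stayed below 0.6 FPKM in every library. The part of fibroblast and synovial cells in the changes above was not tested.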

How the data were processed

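Total RNA of rat primary chondrocytes was enriched for polyadenylated mRNA and sequenced, per the labels' protocols. The deposited table gives FPKM per gene, which the authors computed; the submitters' processing notes name the mouse build GRCm38 although the samples are rat, and no source used here names the aligner or counter. Gene symbols come from the table, and no gene coordinates were taken from it. A value of exactly 0 can be a failed estimate: 23 members were listed at 0 in at least 1 library beside at least 5 FPKM in another of the same group.

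The members and gene lists were chosen with earlier results of these data known. Genes with at least 1 FPKM in at least 3 of 9 libraries (11732) were fitted with limma 3.58.1 in R 4.3.3 on log2(FPKM + 1) with a mean-variance trend, all 9 libraries sharing 1 estimate of the spread. The contrast was IL-1β minus control, two-sided, with Benjamini-Hochberg adjustment over all tested genes and a threshold of 0.05. Libraries were not rescaled. The fit was tried on simulated data with changes of 0.25, 0.5, 1 and 2 log2, in 50 genes each. It recovered 48%, 92%, 96% and 100% of them, and 5.62% of all calls were false. Far fewer genes changed in the simulation than were called here, its noise was normal and independent, and library scaling was not varied. A design of 3 against 3 cannot give an exact permutation p below 0.1 for a single value, so shares of FPKM carry no test. Depth in reads is unknown, since the table holds no counts.

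Genes named were drawn, not all being printed, from the 15 largest rises and falls, the 10 largest gains and losses of FPKM, the 10 highest genes at 1 FPKM in only 1 group, the 10 most abundant bounded genes, and in each list the genes written at its head, those with the smallest p and those called against the list's majority. Orm1 and Upp1 lie outside this rule and were named after their values or matches were seen. Promoters were matched by gene ID to RefSeq's table of GRCr8. Alternatives were another pseudocount, other filters, rescaled libraries, the 6 compared libraries alone, the replicate number as a block, and each library left out.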

Additional observations from a re-analysis of the deposited data

How the results depend on the processing

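Counts of genes called higher and lower, 3109 and 2370 of 11732, were 3103 and 2359 with a pseudocount of 0.1, 3228 and 2541 of 17586 with no filter, 3046 and 2342 with a filter on the mean, and 3067 and 2374 with only the 6 compared libraries. Leaving out 1 library at a time gave 2695 to 2789 higher and 2086 to 2123 lower. No gene called in both fits changed direction under any of these, under rescaling or under the block. Deviations of same-numbered control and IL-1β libraries were weakly correlated, at 0.024, 0.021 and 0.085. Differently numbered ones gave -0.066 to 0.044. The numbers are not treated as pairs. With the replicate block 2946 genes were called higher and 2255 lower. With a pseudocount of 0.1, 473 genes rose and 234 fell at least 2-fold, against 340 and 157, since weakly expressed genes are then shrunk less. The table holds no counts, so the part of read depth in the spread of weakly expressed genes could not be measured.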
